A study of Drosophila melanogaster with 3 samples.

Results

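Weak ChIP-seq regions inside protein-coding sequence were described for Su(var)3-7 in whole fruit fly embryos. A region was taken from the pooled list of relaxed regions when its summit, the base of strongest signal, lay inside an annotated coding segment of a protein-coding gene and more than 500 bp from every protein-coding start site. The choice used position alone, and it kept 5054 of 30000 regions, 16.8% of the list. A further 1386 regions had a coding summit closer to a start site and were classed with the start sites. Of the other regions, 8752 lay at start sites, 10042 in introns, 4710 between genes, 816 in untranslated exons and 626 in non-coding genes. The data came from 1 group of 3 biological replicates of Drosophila melanogaster embryos aged 0 to 24 h, with males and females pooled, and no second genotype, stage or treatment was compared. Every replicate carried the same transgene, an insertion that expresses Su(var)3-7 fused at its C terminus to green fluorescent protein (GFP). Chromatin was sheared by sonication to 200 to 800 bp and precipitated with an antibody against GFP, so the lists hold the tagged protein from 1 transgenic line and all embryonic tissues together. The labels do not say whether the untagged protein was also present, and the lists hold peak signals in place of read counts, which leaves sequencing depth unknown.

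Su(var)3-7 is a zinc-finger protein of heterochromatin, and its gene was found through its effect on position-effect variegation, the patchy silencing of genes placed near heterochromatin. It is known to act with the heterochromatin protein HP1 and with the histone methyltransferase Su(var)3-9. In a relaxed region list, the authors' caller reports weak signal as well as strong peaks, so that reproducibility between replicates can be assessed afterwards. Coding exons of the fly are richer in G and C than introns and intergenic DNA, and DNA of different composition can be recovered unequally in chromatin immunoprecipitation.

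Sequences of 201 bases around the summits were read from the RefSeq genome of build dm6 and are written 5′ to 3′ on the forward strand. The first set shows strong coding-exon regions that hold the letters AGNNGGCGC, the core of the motif bound by the insulator protein CTCF, on either strand. This motif was added after the sequences had been seen. Capitals mark its matches, which overlap each other in HisRS, the histidyl-tRNA synthetase gene.
Pde1c, chr2L:11816477-11816677: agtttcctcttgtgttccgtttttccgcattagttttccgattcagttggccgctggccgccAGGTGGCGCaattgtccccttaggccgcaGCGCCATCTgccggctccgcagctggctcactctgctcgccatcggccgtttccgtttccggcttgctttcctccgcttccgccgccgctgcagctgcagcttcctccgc
klar, chr3L:506130-506330: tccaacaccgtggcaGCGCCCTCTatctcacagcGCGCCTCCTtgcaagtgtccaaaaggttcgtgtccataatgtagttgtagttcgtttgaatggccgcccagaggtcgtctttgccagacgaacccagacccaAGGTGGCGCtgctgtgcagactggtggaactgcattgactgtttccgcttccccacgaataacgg
HisRS, chrX:18517538-18517738: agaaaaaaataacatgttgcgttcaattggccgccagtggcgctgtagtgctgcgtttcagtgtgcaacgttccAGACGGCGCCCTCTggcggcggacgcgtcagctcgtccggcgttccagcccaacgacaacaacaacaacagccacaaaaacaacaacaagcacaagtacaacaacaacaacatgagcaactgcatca
In the second set, capitals mark bases that are annotated as coding, and the summit is the middle base. It shows strong regions whose summit lay within 20 bp of the edge of a coding segment, so that much of the signal window was intron or other non-coding sequence.
CG10357, chr3L:3616441-3616641: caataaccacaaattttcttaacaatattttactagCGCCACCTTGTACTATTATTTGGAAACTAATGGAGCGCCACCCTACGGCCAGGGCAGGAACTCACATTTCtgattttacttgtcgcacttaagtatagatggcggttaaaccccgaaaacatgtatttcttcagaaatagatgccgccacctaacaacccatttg
bif, chrX:11681636-11681836: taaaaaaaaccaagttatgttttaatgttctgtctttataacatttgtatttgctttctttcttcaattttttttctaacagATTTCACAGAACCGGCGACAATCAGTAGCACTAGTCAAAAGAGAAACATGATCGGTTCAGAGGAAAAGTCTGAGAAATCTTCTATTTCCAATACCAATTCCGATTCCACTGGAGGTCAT
l(3)mbn, chr3L:6124720-6124920: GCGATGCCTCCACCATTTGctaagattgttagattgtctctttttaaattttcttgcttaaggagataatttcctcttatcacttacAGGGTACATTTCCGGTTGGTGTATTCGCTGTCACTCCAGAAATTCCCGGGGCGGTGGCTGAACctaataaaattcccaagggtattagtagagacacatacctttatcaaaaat
The last sequence shows the trinucleotide repeat CAGCAGCAG, the opa repeat that often encodes runs of glutamine in fly proteins, with its matches in capitals on the strand opposite to its spelling.
btsz, chr3R:14819966-14820166: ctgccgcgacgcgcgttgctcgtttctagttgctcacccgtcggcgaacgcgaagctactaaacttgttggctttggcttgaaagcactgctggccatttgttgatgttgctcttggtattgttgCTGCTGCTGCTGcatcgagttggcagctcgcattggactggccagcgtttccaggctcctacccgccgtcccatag

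Coding-exon regions were numerous and weak. Coding sequence away from start sites made up 14.1% of the genome and held 268 regions per Mb, against 191 in introns, 126 between genes and 571 around start sites. Their median signal, in the authors' units, was 45.1, with quartiles of 38.6 and 55.8 and a range of 33.5 to 1160. The median was 52.9 for the whole list, 68.2 at start sites, 52.2 in introns and 49.6 between genes. Only 1517 coding-exon regions, 30.0%, were stronger than the list's median rank. The thresholded list, the authors' set that passed their reproducibility threshold, consists of the 4055 strongest summits of the pooled list, which have signals of 119 or more. It held 29 coding-exon summits, 0.574% of the 5054, against 13.5% over all pooled regions. By length of sequence, this was 1.54 thresholded summits per Mb of coding exon, against 24.6 per Mb of intron, 13.7 between genes and 136 at start sites. Coding exons therefore held more relaxed regions per Mb than introns and fewer thresholded summits per Mb. By interval, 47 coding-exon regions overlapped a thresholded peak, 0.930% against 16.5% over all regions, and 18 of these overlapped a peak whose summit lay elsewhere. Nearly all had the list's commonest width of 424 bp, namely 5050 regions or 99.9%, against 95.8% of the whole list, and the 4 narrower ones lay in otp, Pde1c, CG10357 and l(3)mbn. The whole interval was coding for 2543 regions, 50.3%.

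The shortage at the top of the list was present in each replicate. Among the strongest 4055 regions of a replicate's own list, 47 were in coding exons in replicate 1, 26 in replicate 2 and 97 in replicate 3, or 1.16%, 0.641% and 2.39%. Among the remaining regions the shares were 18.5%, 18.2% and 21.6%. Replicate 3 had the highest count in both classes, and the ranges of the strongest and the remaining regions did not overlap. The difference was -18.1 percentage points ± 1.01 (SD, n = 3), and the exact two-sided sign-flip permutation test over replicates gave p = 0.25, the smallest that 3 replicates allow. By rank bins of 3000 regions, the coding-exon share was 0.689% ± 0.329 (SD, n = 3 replicates) in the strongest bin, 5.60% ± 2.63 in the second, 12.98% ± 3.83 in the third and 18.4% ± 2.55 in the fourth. It then lay between 20.2% and 22.8% in all weaker bins. In the pooled list the strongest bin held 13 coding-exon regions and the weakest 749.

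**Figure D1:**
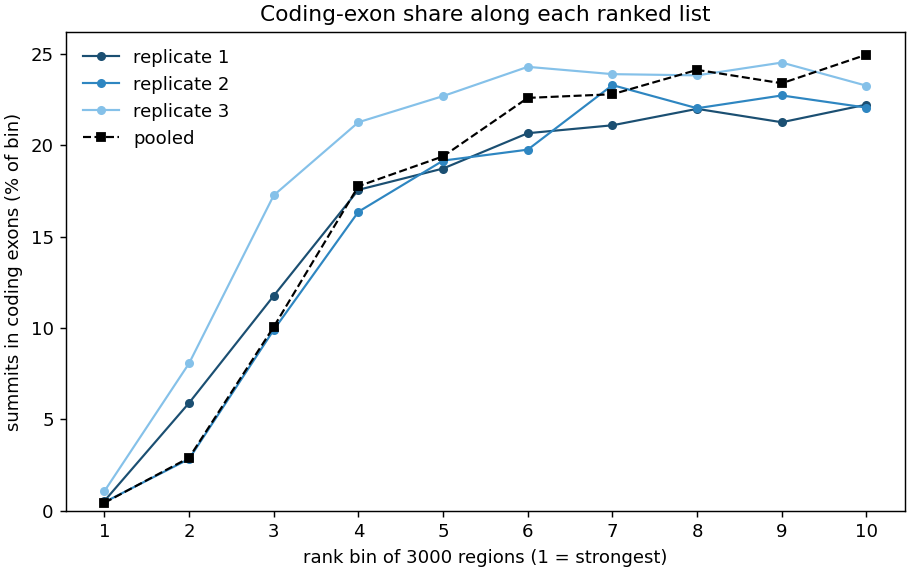
Share of regions whose summit lay in a coding exon away from start sites (y axis, percent) in each rank bin (x axis, 3000 regions per bin), for the 3 replicate lists and the pooled list. All 4 lines start near 0 in the strongest bin and flatten after the fourth, and replicate 3 lies highest through the seventh bin.

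Coding summits were stronger close to start sites. Of 112 coding summits within 100 bp of a start site, 9 were thresholded (8.04%) and the median signal was 56.5. Just inside the 500 bp boundary, at 401 to 500 bp, 1 of 343 was thresholded (0.292%) with a median signal of 48.3. Just outside it, at 501 to 600 bp, 2 of 346 were (0.578%) with a median of 45.5. At more than 5000 bp, 4 of 709 were thresholded and the median was 44.6. Across the 5054 regions, the Spearman correlation of signal with distance was -0.06, as a description.

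Weak coding-exon regions were listed by some replicates more often than by all. A region was counted as found in a replicate when that list had a summit within 200 bp. Of the 5054 regions, 921 were found in all 3 lists, 2129 in 2, 1794 in 1 and 210 in none. The 921 made 18.2%, against 36.4% over all pooled regions, 51.4% at start sites, 35.2% in introns and 31.9% between genes. The share was 28.8% in untranslated exons and 35.8% in non-coding genes. Required in the other 2 lists only, the count was 1717 without replicate 1, 1580 without replicate 2 and 1595 without replicate 3. Replicate 1 found 54.7% of them, replicate 2 61.0% and replicate 3 58.7%. For scale, 9.48%, 9.31% and 11.0% of all coding bases away from start sites lay within 200 bp of a summit of the same lists. The pooled list was made from the reads of the replicates, so a comparison of replicate lists with each other is the cleaner one. Of the coding-exon regions of 1 replicate, 34.3% ± 0.651 (SD over the 3 possible pairs) recurred within that distance in another, against 46.8% ± 1.44 between genes, 49.3% ± 1.12 in introns and 65.7% ± 0.941 at start sites. The ranges over the pairs did not overlap between coding exons and these 3 classes. Untranslated exons and non-coding genes were not compared in this way. Among the strongest 4055 of a replicate, recurrence was rarer, and 8 coding-exon regions, 0.158%, were among the strongest of all 3 replicates, against 8.39% over all regions.

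Recurrence followed strength. The median pooled signal was 36.2 for coding-exon regions found in no replicate list, 39.5 for those in 1, 47.6 for those in 2 and 64.2 for those in all 3. Within a rank bin of the pooled list, the share of coding-exon regions found in all 3 lists was near that of other classes in the stronger bins and below it in the weakest. In the third bin the share was 69.9% in coding exons, 69.2% in introns and 67.7% at start sites. In the fourth it was 50.1%, 46.0% and 44.6%, and in the fifth 30.9%, 27.7% and 25.7%. In the seventh bin the order was the other way, with 6.29%, 7.92% and 9.20%. In the eighth bin the share was 3.04% in coding exons and 8.32% at start sites, and in the ninth 1.14% and 4.86%. In the weakest bin the shares were 0.801% in coding exons, 2.26% in introns and 2.66% at start sites. The 3 weakest bins held 724, 702 and 749 coding-exon regions. Pooled strength and recurrence share reads, so these shares describe the lists and carry no test. Values also varied between replicates at recurrent sites. Over the 892 coding-exon regions that were found in all 3 lists and not thresholded, the Spearman correlation of signal between replicates was 0.16 to 0.20 over the 3 pairs. It was 0.25 to 0.26 over 6046 other regions chosen in the same way.

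**Figure D2:**
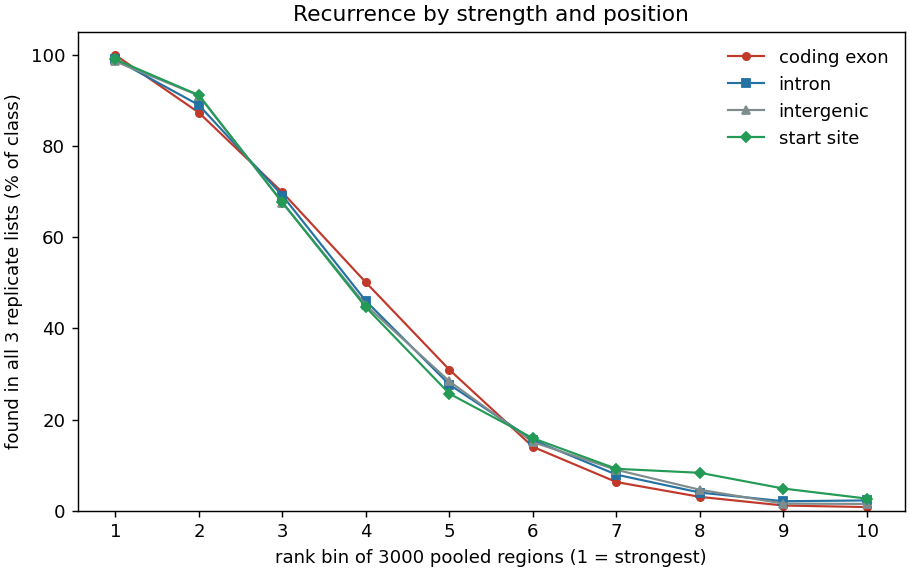
Share of regions found within 200 bp in all 3 replicate lists (y axis, percent of the class) in each rank bin of 3000 pooled regions (x axis), by position of the summit. The 4 lines run close together in the stronger bins, and the start-site line lies above the coding-exon line from the sixth bin on. The coding-exon line falls from 100% in the strongest bin to 0.801% in the weakest.

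The 29 thresholded coding-exon summits were spread over 28 genes, with 2 in CG42748. All 29 were found in all 3 replicate lists, which was not particular to coding exons. Elsewhere, 9992 regions were found in all 3 lists and 6046 of these were not thresholded. That leaves nearly all of the 4026 thresholded peaks outside coding exons. Of the 29, 8 were among the strongest 4055 of all 3 replicates, 12 of 2 and 9 of 1. Over the whole pooled list, 2518 regions were among the strongest of all 3, and the share of thresholded peaks alone was not counted. Their median signal was 139, against 181 for all thresholded peaks, and 23 of them were under 200. In what follows, a replicate's value is the signal of its strongest summit within 200 bp, divided by the median of that replicate's list. The strongest region, in otp, which encodes the homeodomain transcription factor Orthopedia, had a pooled signal of 1160 and values of 18.4, 22.2 and 13.4 in replicates 1, 2 and 3 (mean 18.0 ± 4.42 SD, n = 3). Its summit lay at base 20884574 of chromosome 2R on dm6, 4644 bp from the nearest start site. The coding segment under it, merged over all transcripts and genes, was 309 bp long. The otp region was the strongest coding-exon region of each replicate. The region in Pde1c, a cyclic nucleotide phosphodiesterase gene, had a signal of 596 and values of 10.2, 10.3 and 7.32 (mean 9.28 ± 1.70). These 2 regions stood clear of the rest, since no other thresholded coding-exon region exceeded 6.23 in any replicate.

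The next 4 regions had pooled signals of 224 to 274. The region in CG10357 had values of 3.70, 6.23 and 2.79, and that in bif, which encodes the actin-binding protein Bifocal, 3.68, 3.37 and 4.86. The region in klar, which encodes the nuclear migration protein Klarsicht, had values of 3.10, 4.46 and 2.56, and that in l(3)mbn 3.03, 4.47 and 2.86. All 4 were above the list median in every replicate, and no replicate was highest in all of them. The summits in CG10357, bif and l(3)mbn lay 5, 18 and 13 bp from the edge of their coding segment, and that in Pde1c 16 bp, as the second set of sequences shows for 3 of them. In CG10357 only 32.7% of the interval was coding, in l(3)mbn 47.4%, in Pde1c 52.0% and in bif 54.2%. The summit in scrib, which encodes a scaffold of epithelial polarity, lay 8 bp from an edge and had values of 3.33, 2.33 and 1.24. Over all 29, 17.2% lay within 50 bp of an edge, against 13.02% of all coding-exon regions and 21.2% of coding bases away from start sites.

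Further down, some regions were even between replicates and others rested on 1 or 2 of them. The region in gus, which encodes the Vasa-binding protein Gustavus, had values of 3.24, 1.79 and 4.09, and that in the insulin receptor gene InR 2.89, 2.62 and 1.59. The one in HisRS had 2.11, 2.03 and 1.91, the narrowest spread of the 29 (SD 0.0976). The region in CG17646 had 2.04, 2.49 and 2.42. By contrast, the region in cta, which encodes the G protein subunit Concertina, had 3.47, 1.31 and 1.24, so that replicate 1 carried it. In rt, a protein O-mannosyltransferase gene, replicate 2 was below its list median at 0.799 while replicates 1 and 3 had 2.33 and 2.27. In Gpdh1, the glycerol-3-phosphate dehydrogenase gene, replicate 1 had 0.997 against 2.42 and 2.11, and in CG4822 replicate 3 had 0.994. The remaining thresholded regions lay in Srg3, CG17646, the mitochondrial import gene Tim17b1, btsz, the TOR pathway inhibitors scyl and chrb, CG8036, d4, the kinase genes sgg and Abl, the ribosomal protein gene RpL13A, Nplp1, the Toll adaptor gene Myd88 and CG42748. Their means ran from 1.77 in Abl to 2.86 in Srg3. Just under the threshold lay regions in spir, with a signal of 116, Lsp1gamma, with 115.4, and the troponin T gene up, with 113.

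**Figure D3:**
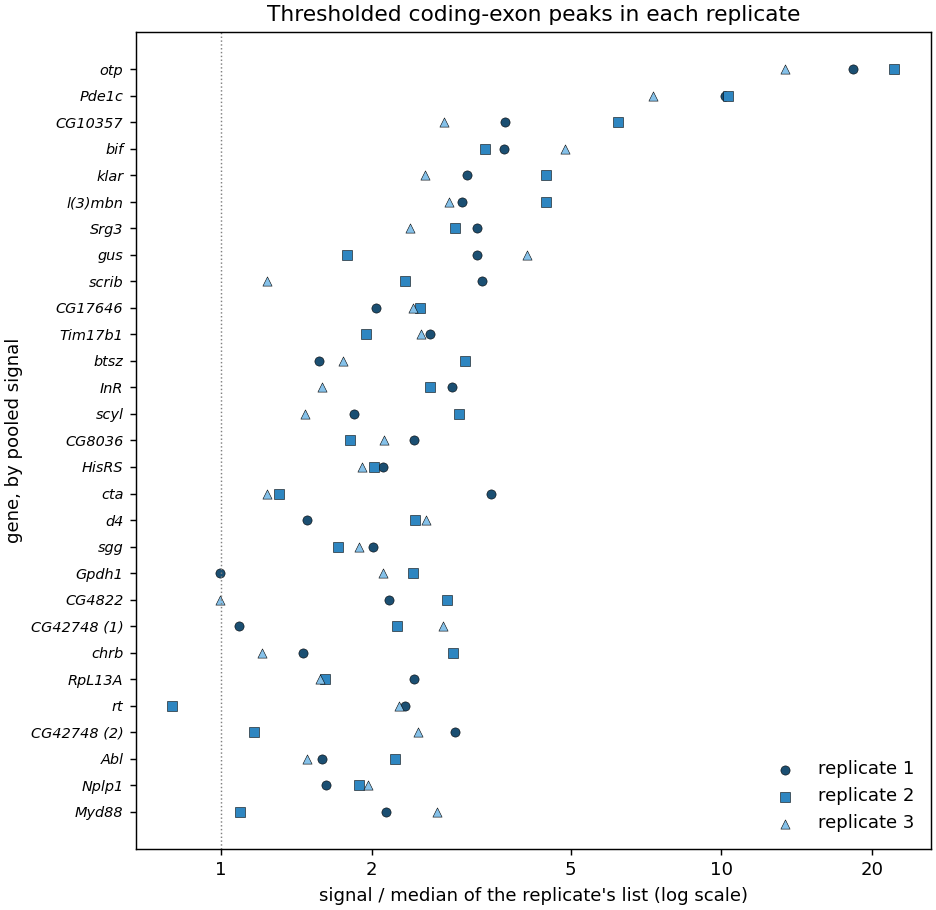
Signal of each replicate's strongest summit within 200 bp of the 29 thresholded coding-exon summits, divided by the median of that replicate's list (x axis, log scale). There is 1 row per region, named by its gene and ordered by pooled signal, with 1 symbol per replicate. The otp and Pde1c regions lie apart at 7.32 or more in every replicate, and in the lower rows single replicates fall to the list median (dotted line) or below it.

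The regions lay in the GC-rich part of coding sequence. In 201 bp around the summit their GC content averaged 56.4%, against 51.9% around all coding bases away from start sites, a difference of 4.58 percentage points. Intronic regions averaged 41.6%, against 40.2% for intronic bases. The excess was not particular to coding exons. In every class the regions were richer in G and C than the class's bases, by 1.21 points at start sites and 2.46 between genes. In untranslated exons the difference was larger than in coding exons, at 6.90 points (43.6% against 36.7%). In the replicates' own lists, coding-exon regions averaged 55.8%, 55.5% and 55.5% GC, and other regions away from start sites 42.0%, 41.8% and 42.8%. The difference was 13.4 points ± 0.587 (SD, n = 3), with p = 0.25 by the exact two-sided sign-flip permutation test, the smallest possible. Coding bases averaged 51.9% GC as such, and intronic and intergenic bases 40.2% and 40.5%, so this difference between classes does not show which coding bases held regions. Signal rose slightly with GC among the 5054 regions, with a Spearman correlation of 0.13 as a description. Below 45% GC the median signal was 42.9 and 12.4% of regions were found in all 3 lists, while at 65% or more the values were 49.8 and 25.1%. The thresholded coding-exon regions spanned 33.3% to 73.6% GC with a median of 57.2%. The part of base composition in the number and recurrence of these regions was not tested.

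**Figure D4:**
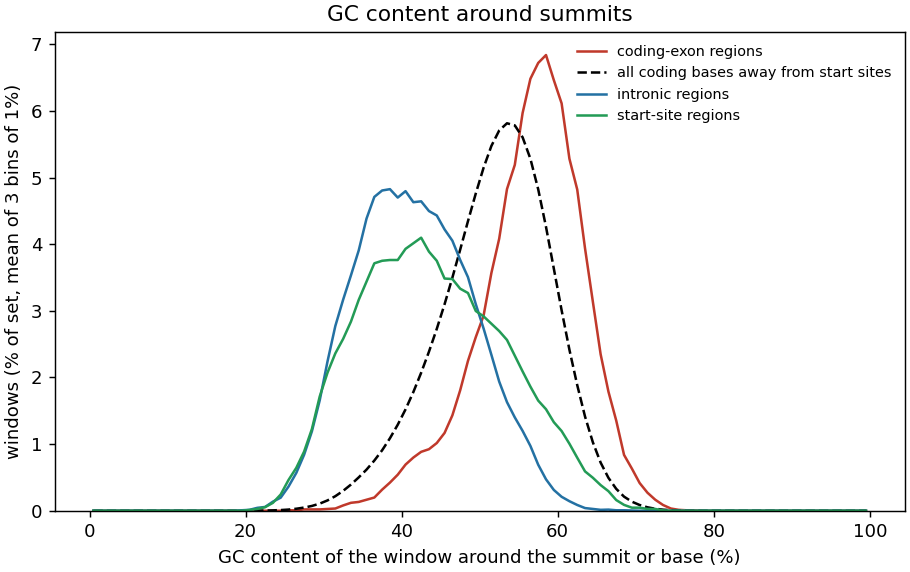
Distribution of GC content in 201 bp (x axis, percent) around the summits of coding-exon, intronic and start-site regions and around all coding bases away from start sites (dashed), as percent of windows per 1% bin (y axis), smoothed over 3 bins. The coding-exon regions, with a mean of 56.4%, lie to the right of coding bases as a whole, with 51.9%.

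Within genes, the regions lay away from the edges of coding segments. For lengths and edges, coding segments that overlapped between transcripts or genes were merged. The merged segment under the summit had a median length of 799 bp, against 817 bp for coding bases. The median distance to its edge was 212 bp, against 167 bp. Merged segments over 300 bp held 86.2% of regions and 80.0% of coding bases. The thresholded regions lay in shorter merged segments, with a median of 396 bp. A summit lay in no intron of any protein-coding transcript for 89.7% of regions, against 87.7% of coding bases. Summits masked as repeats made 4.23%, against 3.68%. Of 4940 regions placed along their coding sequence, 31.3% lay in the first of 3 equal parts, 33.0% in the middle and 35.6% in the last, against 25.5%, 36.8% and 37.8% of coding bases. The first part was the only one above its share of bases.

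Short motifs differed between coding-exon regions and the strong peaks elsewhere. The DRE element TATCGATA, bound by the promoter factor DREF, stood within 100 bp of the summit, on either strand, in 0.158% of coding-exon regions and in 0.211% of windows placed on every 1000th coding base. It was in 2.03% of all pooled regions and 4.86% of all thresholded peaks. The GAGA element GAGAGAG was in 1.17%, 1.03%, 3.87% and 4.64% of these 4 sets, and the core promoter motif GGTCACAC in 0.198%, 0.327%, 1.59% and 3.06%. None of the 3 was in any of the 29 thresholded coding-exon regions. The opa repeat CAGCAGCAG went the other way, with 8.59% of coding-exon regions, 4.91% of coding bases, 2.93% of all regions and 1.13% of thresholded peaks. Of the 29 thresholded coding-exon regions, 5 held this repeat, or 17.2%. In the replicates' lists it was in 9.13%, 6.98% and 7.08% of coding-exon regions. The core GCGGCGGC was in 6.33%, 3.23%, 2.12% and 0.863% of the 4 sets. Both of the latter are rich in G and C, as are the coding-exon regions, and the part of base composition was not tested. Of the other motifs searched, CAGGTAG was in 2.14% of coding-exon regions and 1.89% of coding bases, CACGTG in 3.40% and 2.99%, CACACACA in 0.554% and 0.539%, while CGATA, which is contained in the DRE element, was in 20.2% ± 0.603 of coding-exon regions of the replicates' lists (SD, n = 3) and in 22.8% of coding bases.

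The CTCF core AGNNGGCGC was in 6.25% of coding-exon regions, 3.55% of coding bases, 3.43% of all pooled regions and 3.90% of thresholded peaks. In the replicates' lists its share of coding-exon regions was 5.66% ± 0.337 (SD, n = 3). Of the 29 thresholded coding-exon regions, 7 held it, or 24.1%. They were the regions of otp and Pde1c, with 2 matches each, CG10357 with 1, klar with 3, HisRS with 2, and Nplp1 and the second region of CG42748 with 1 each. So 4 of the 5 strongest coding-exon regions held the core, and bif was the exception. The motif was chosen because it stood out in these sequences, so these counts describe them and have no test. It is rich in G and C too, and the part of base composition in its shares was not tested.

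The regions were scattered over many genes. Of 12501 genes with coding bases more than 500 bp from a start site, 3443, or 27.5%, held at least 1 region, and 2386 of them held exactly 1. A further 736 genes held 2, 264 held 3 or 4 and 57 held 5 or more. Over all genes this was 0.267 regions per kb of such coding sequence. Density was lower in long genes, at 0.364 per kb where the coding sequence away from start sites was 501 to 1000 bp and 0.181 where it was over 4000 bp. Genes with a coding-exon region also had a thresholded peak at a start site more often, 1029 of 3443 (29.9%) against 1439 of 9058 genes without one (15.9%). This held in each class of coding length, from 26.4% against 13.2% up to 500 bp to 38.6% against 24.6% over 4000 bp. By distance, 367 coding-exon regions, 7.26%, lay within 1 kb of another thresholded summit and the median distance to one was 5.48 kb.

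The gene with the most regions was bt, which encodes the giant muscle protein projectin and lies on chromosome 4. It held 21 regions in 26595 bp of coding sequence, and the replicate lists had 20, 23 and 17. Of the 21, 5 were found in all 3 lists, the strongest had a signal of 84.2, and no thresholded peak stood at its start sites. The chitinase gene Cht10 followed with 9 regions, and the replicates had 4, 7 and 9. The collagen IV gene Col4a1, Svil, which encodes a supervillin, and the teneurin gene Ten-m had 8 each. In Col4a1 the replicates had 4, 5 and 4, and none of the 8 was found in all 3 lists. The other collagen IV gene, vkg, had 7, of which 3 were found in all 3 lists. Genes with 7 regions also included the ryanodine receptor gene RyR, the histone methyltransferase gene Set1, the chromatin remodelling gene osa, lola, stw, bif, btsz, gukh, Cdep, CG33978 and CG42748. The Su(var)3-7 gene itself had 3401 bp of coding sequence away from its start sites and no region in the pooled list, with 3, 1 and 0 in the replicates, while its start site had a thresholded peak.

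By chromosome arm, 2R had 316 regions per Mb of coding sequence away from start sites, 3L 273, X 271, 2L 244 and 3R 235. The small chromosome 4, which is rich in heterochromatin, had 94 regions, or 366 per coding Mb, with 277, 405 and 389.6 in the replicate lists (mean 357 ± 70.2 SD, n = 3). In replicate 1 chromosome 4 was below 2R, which had 295, and in replicates 2 and 3 it was the highest of the arms. The median GC content of these 94 was 45.02%, below the medians of 56.2% to 58.7% on the other arms. None of the 94 was thresholded, against 0.574% of all coding-exon regions, and 16.0% were found in all 3 lists, against 18.2%, so both shares were near those of all coding-exon regions. Of the 94, 21 lay in bt. On the Y chromosome no region lay in coding sequence, of which 0.0576 Mb was annotated.

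Groups of genes with roles in the embryo differed in density. Densities here are means over the 3 replicate lists, against 0.270 per kb ± 0.0276 (SD, n = 3) for all coding sequence away from start sites. Genes of cytoplasmic ribosomal proteins had 1.06 per kb ± 0.210, the highest of 14 groups, and their lowest replicate, with 0.886, was above the highest of all coding sequence, with 0.301. In the pooled list, 28 of 79 such genes (35.4%, against 27.5% of all genes) held 34 regions, with a median signal of 53.3. Of the 34, 44.1% were found in all 3 lists, against 18.2% of all coding-exon regions. The strongest were in RpL13A, with a signal of 122 and values of 2.43, 1.61 and 1.58 in the replicates, RpL4, with 95.7, and RpL5, with 94.5. These genes are short, with a median of 0.282 kb of coding sequence away from start sites. Among all genes with up to 500 bp, 8.30% held a region. Of the 79, 56 (70.9%) had a thresholded peak at a start site, against 2468 of all 12501 genes (19.7%). The median distance of the 34 summits from a start site was 746.5 bp, against 1505 bp for all coding-exon regions. Another thresholded summit lay within 1 kb for 18 of the 34 (52.9%), against 7.26% of all coding-exon regions. Their median GC content was 58.5%, and the part of nearby peaks and of base composition in their density was not tested.

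Heat shock proteins and chaperones had 0.442 per kb ± 0.106, with 2 pooled regions in Hsp83, the strongest at 82.5, 1 in DnaJ-1 and 2 in Hsc70-5. None of their 10 regions was found in all 3 lists, against 18.2% of all coding-exon regions, and 10 is a small count for such a share. Of the 10, 5 lay within 1 kb of another thresholded summit, against 7.26% of all coding-exon regions. Mitochondrial ribosomal protein genes had 0.372 ± 0.0894, from 7 of 62 genes in the pooled list (11.3%, against 27.5% of all genes). These genes are short, with a median of 0.296 kb of coding sequence away from start sites. Among all genes with up to 500 bp, 8.30% held a region. The strongest regions were in mRpL3, mRpL46 and mRpL15. None of the group's 7 regions was found in all 3 lists, against 18.2% of all coding-exon regions, a small count to set against that share. Genes of Polycomb, Trithorax and other chromatin proteins had 0.348 ± 0.00453, in 18 of 28 genes (64.3%, against 27.5% of all genes). These genes are long, with a median of 3.79 kb of coding sequence. Among all genes with 2001 to 4000 bp, 44.8% held a region, and over 4000 bp 50.9%. The chromatin group was led by osa at 95.8, the Polycomb group gene Scm at 75.8 and E(Pc) at 74.2. Signalling genes had 0.312 ± 0.0982, led by the Toll pathway inhibitor cact, the Wnt receptor gene fz2 and rho. Patterning transcription factors had 0.307 ± 0.0798, led by the Hox genes Antp and pb and by cad. None of their 12 regions was found in all 3 lists, against 18.2% of all coding-exon regions, and this count is small too. The replicate ranges of the mitochondrial ribosomal, signalling and patterning genes overlapped the 0.251 to 0.301 of all coding sequence.

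Muscle genes had 0.243 per kb ± 0.0234, and 13 of 25 held regions (52%, against 27.5% of all genes), led by up, Act57B and bt. Their median coding length was 1.22 kb, and 33.6% of all genes with 1001 to 2000 bp held a region. Much of this group was 1 gene, since bt held 21 of its 53 pooled regions. In replicates 1, 2 and 3 bt held 20 of 61, 23 of 53 and 17 of 51. Extracellular matrix genes had 0.202 ± 0.0341, led by LanB2, which encodes a laminin chain, and then vkg and Col4a1. Genes of trypsin-like proteases and cytochromes P450 had 0.195 ± 0.0527, led by Cyp311a1, Cyp305a1 and Cyp301a1. Cuticle protein genes had 0.181 ± 0.0547, led by TwdlF, Cpr64Aa and Cpr64Ad. The matrix, protease and cuticle groups, and the 4 groups of lowest density that follow, were below the replicate range of all coding sequence in every replicate. Cadherins and other large adhesion receptors had 0.144 ± 0.0260, led by Ten-m, Dscam1 and the E-cadherin gene shg. Ion channel and synapse genes had 0.119 ± 0.0217, led by the potassium channel gene Sh, brp and unc-13. Cytoskeletal and motor genes had 0.117 ± 0.0180, led by jar, the kinesin gene Khc and shot. Odorant, gustatory and ionotropic receptors had 0.0900 ± 0.0316, in 12 of 179 genes (6.70%, against 27.5% of all genes), led by Ir68b, Ir40a and Ir76a. The receptor genes had a median coding length of 0.825 kb, and 23.6% of all genes with 501 to 1000 bp held a region. The median GC content of the receptors' regions was 52.2%, below the 57.2% of all coding-exon regions. That of the muscle genes' regions was lower still, at 51.2%. The muscle value includes the regions of bt on chromosome 4, where the median of all coding-exon regions was 45.02%. Coding length differed too, with medians of 4.97 kb in the matrix, 5.85 kb in the adhesion and 6.95 kb in the cytoskeletal group. In the pooled list these 3 groups had 0.198, 0.137 and 0.0808 per kb, against 0.181 for all genes over 4000 bp. The medians were shorter in the channel (2.72 kb), protease (0.972 kb), receptor (0.825 kb) and cuticle (0.356 kb) groups. The part of coding length and of base composition in these densities was not tested.

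**Figure D5:**
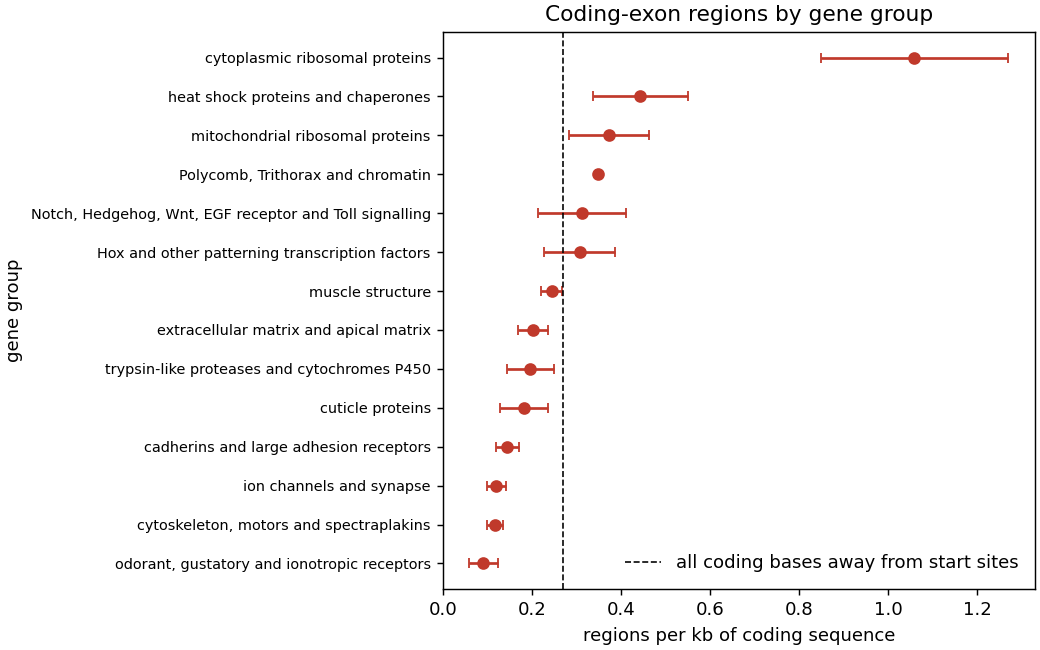
Coding-exon regions per kb of coding sequence more than 500 bp from start sites (x axis) in 14 groups of genes (y axis). Points are means and bars SDs over the 3 replicate lists, and the dashed line is the mean of all such coding sequence, 0.270 per kb, which the cytoplasmic ribosomal protein genes exceed with 1.06.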

How the data were processed

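Peak lists of 3 replicates on build dm6, per the labels, were used. Per the deposited inventory texts, the authors called relaxed regions per replicate against 1 control file, called a pooled list from the 3 alignments and that control, and derived a thresholded list from these by the irreproducible discovery rate. The signal values are those deposited by the authors, on a scale that is not stated. For the aligner, the caller and their settings, no name is given in the sources used here. Depth is unknown, so no counting interval is given.

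Coding segments and start sites (19275 positions of 13968 protein-coding genes) came from Ensembl release 115 of BDGP 6.54, and sequence from the RefSeq genome of the same assembly. The start site class took precedence, then coding exons, untranslated exons, introns and non-coding genes. Shares over all regions (calls) and over coding bases stand in for tests, and replicate differences were tested by exact sign-flip permutation. In tests on simulated positions, 400 of 400 were classed as by direct search. The regions, gene lists and most tests were chosen with earlier results of these data known. Named genes were those of the 20 strongest regions, of all thresholded ones and of the 10 genes with most regions, Su(var)3-7 and the 3 with the strongest region in each list. Genes tied at 7 regions, and those just under the threshold, were named in addition. Alternatives were other distances, overlaps, windows and left-out replicates. The dm3 lists were not used. Python 3.11.15, NumPy 2.4.6, pandas 2.3.3, SciPy 1.17.1 and matplotlib 3.10.9 were used.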

Additional observations from a re-analysis of the deposited data

How the results depend on the processing

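The number of coding-exon regions was 5054 and lay between 3483 and 6025 with start-site distances of 1000 and 200 bp, interval middles or coding bases in no intron of another transcript. The 47 that overlapped a thresholded peak became 29 with the same summit required and 9 with the stronger 50% of the thresholded peaks. The 921 found in all 3 lists became 505 within 100 bp, 1532 within 500 bp, 1462 by interval overlap and 1580 to 1717 when a replicate was left out, by construction, since fewer lists had to hold the region. The share difference stayed between -21.0 and -12.6 percentage points and the GC difference between 11.2 and 14.5 over all alternatives run. With 2 replicates the smallest exact permutation p is 0.50. No paired analysis was possible because the labels give 1 group and no other to pair with it, and the differences tested here are within replicates. Unknown depth limits what can be said of a region missing from a list, since each list ends at 30000 regions.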
